A study of Mus musculus with 12 samples.

Results

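Mitochondrially encoded RNAs are the transcripts of the mitochondrion's own circular genome, and all 37 of them were listed among the 54532 genes of the table: 13 protein-coding genes (mRNAs), 2 ribosomal RNA genes (rRNAs) and 22 transfer RNA genes (tRNAs). They are every gene that the table places on the mitochondrial genome (MT). RNA-seq was run on 12 libraries of primary hepatocytes, the main metabolic cells of the liver, from mice aged 6 weeks, with 3 libraries in each of 4 groups. HKO_PA are hepatocytes of G3bp1-HKO mice under PA treatment, HKO_BSA are those of G3bp1-HKO mice under BSA treatment, Flox_PA are those of G3bp1-Flox mice under PA treatment, and Flox_BSA are those of G3bp1-Flox mice under BSA treatment. The series asks what G3BP1, which binds RNA in stress granules, does in NASH, a fatty liver disease with inflammation, and its title states that the protein moves into mitochondria. HKO, PA and BSA are not spelled out in the labels. The Cre line behind HKO, the dose and duration of PA, and whether the libraries of a group came from different mice were points not given in the sources used here. All p-values therefore reflect just the spread between these libraries, which may be technical.

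The mitochondrial genome is transcribed by a dedicated polymerase into long RNAs from both strands. In most places tRNAs sit between the rRNAs and mRNAs and are cut out of the long RNA, which frees the pieces on either side. The mRNAs code for subunits of respiratory chain complexes I, III and IV and of ATP synthase (complex V), and the rRNAs and tRNAs serve the mitochondrion's own ribosomes, while every other protein of these complexes and of the transcription machinery is made from nuclear genes. Hepatocytes are rich in mitochondria and oxidise fatty acids in them.

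Values are FPKM, that is reads per kilobase of gene, scaled to a library size set by the authors, so levels of different genes can be set side by side per length. Reads in genes came to 15020982 to 18418586 per library. G3bp1 itself had 7.03, 7.39 and 8.09 FPKM in HKO_PA, 7.77, 8.48 and 8.50 FPKM in HKO_BSA, 39.1, 39.0 and 41.6 FPKM in Flox_PA, and 40.0, 37.7 and 45.7 FPKM in Flox_BSA, so every HKO library had less of it than every Flox library (log2 differences of -2.27 with PA and -2.19 with BSA). The labelled cell type was checked with 10 hepatocyte markers, none of which was at 0 in all libraries. Their summed level was 11679 to 21127 FPKM in HKO_PA, 10728 to 20780 FPKM in HKO_BSA, 7657 to 8393 FPKM in Flox_PA and 8106 to 8898 FPKM in Flox_BSA. The summed level of 16 Kupffer cell and macrophage markers was 141.5 to 180.1 FPKM in HKO_PA, 94.7 to 132.9 FPKM in HKO_BSA, 1891 to 2127 FPKM in Flox_PA and 2256 to 2355 FPKM in Flox_BSA, and again none was at 0 throughout. All 16 were lower in HKO in both treatments, with medians of -3.46 (PA) and -4.25 (BSA) on the log2 scale, so the genotypes differed in macrophage RNA as well as in G3bp1. Of the other marker lists with tested genes, neutrophil (2 of 2) and stellate cell (1 of 1) markers fell in HKO in both treatments, endothelial markers fell for 1 of 5 with PA and 4 of 5 with BSA, cholangiocyte markers rose for 3 of 3 with PA and 2 of 3 with BSA, and 1 of 1 erythroid markers rose in both. By the same test, given below, 16.9% of all genes rose and 18.8% fell with PA, and 9.63% rose and 10.8% fell with BSA. The endothelial count with PA was thus near the share of all genes. In such bulk samples fewer cells of a type and less RNA per cell cannot be told apart.

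The sequences below show features of the genome that bear on how these RNAs were counted. All are from the GENCODE M21 transcripts on GRCm38, in which all 37 genes have the same start and end as in the authors' table. Mitochondrial genes can overlap: mt-Atp8 and mt-Atp6 share 43 bases, mt-Nd4l and mt-Nd4 share 7, mt-Nd5 and mt-Nd6 share 14 (on opposite strands) and mt-Atp6 and mt-Co3 share 1. The ends of mt-Atp8 (chrMT:7910-7969, plus strand) and mt-Nd4l (chrMT:10144-10173, plus strand) follow, with the bases that also belong to the next gene in capitals.
mt-Atp8, last 60 bases: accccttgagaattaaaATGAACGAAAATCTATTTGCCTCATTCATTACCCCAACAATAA
mt-Nd4l, last 30 bases: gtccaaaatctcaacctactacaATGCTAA

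Part of the mitochondrial genome also lies as a copy on chromosome 1, as 7 unprocessed pseudogenes on the minus strand between 24611535 and 24616197. Over the aligned bases the copies of mt-Co2 (Gm28661, 681 bases), mt-Atp6 (Gm10925, 678), mt-Co3 (Gm28437, 783), mt-Nd4l (Gm10222, 294) and the first 876 bases of mt-Nd4 (Gm28439) were identical to the mitochondrial gene. The copy of mt-Nd3 (Gm28438) differed at 1 base of 345, T3C counted from the first base of mt-Nd3. The copy of the last 492 bases of mt-Co1 (Gm29216) differed at 6, all near its start: T1056A, C1057T, A1059G, A1060G, C1062A and A1066T, counted from the first base of mt-Co1. The matching stretches of mt-Co1 (chrMT:6381-6440, plus strand) and Gm29216 (chr1:24616138-24616197, minus strand) are set side by side with the differing bases in capitals, and the start of mt-Co2 (chrMT:7013-7072, plus strand) is shown as a stretch that is the same, base for base, in Gm28661.
mt-Co1: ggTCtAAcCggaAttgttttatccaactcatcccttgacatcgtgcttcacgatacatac
Gm29216: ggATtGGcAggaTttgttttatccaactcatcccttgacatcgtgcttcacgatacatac
mt-Co2: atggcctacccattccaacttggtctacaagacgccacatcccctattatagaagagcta

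A read from a stretch that is the same in both places cannot be assigned to 1 of them, and the authors' handling of reads with more than 1 place was a point not given in the sources used here. Of all stretches of 50 bases, 100% of those in mt-Co2, 99.9% in mt-Co3, 99.5% in mt-Atp6, 98.8% in mt-Nd4l and 98.0% in mt-Nd3 were also found in a nuclear transcript, against 62.2% in mt-Nd4, 51.1% in mt-Co1, 8.2% in mt-Nd2, 7.6% in mt-Nd5, 1.0% in mt-Rnr2 and 0% in mt-Nd1, mt-Nd6, mt-Cytb, mt-Atp8 and mt-Rnr1. Because of this shared sequence the levels of mt-Co2, mt-Co3, mt-Atp6, mt-Nd4l and mt-Nd3 are uncertain, and those of mt-Nd4 and mt-Co1 in part. The 0% of mt-Atp8 covers annotated transcripts alone. The gene lies between mt-Co2 and mt-Atp6, whose copies Gm28661 and Gm10925 are neighbours on chromosome 1. Its last 43 bases also belong to mt-Atp6 and are identical in Gm10925. The sequence between these 2 copies was not analysed, so the level of mt-Atp8 is uncertain too. The 5 mRNAs with over 90% of shared stretches had mean levels of 33.3 to 477 FPKM over the 12 libraries, and of the 6 mRNAs with under 10%, mt-Atp8 had 2.60 FPKM and the other 5 had 1287 to 6535 FPKM.

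**Figure D1:**
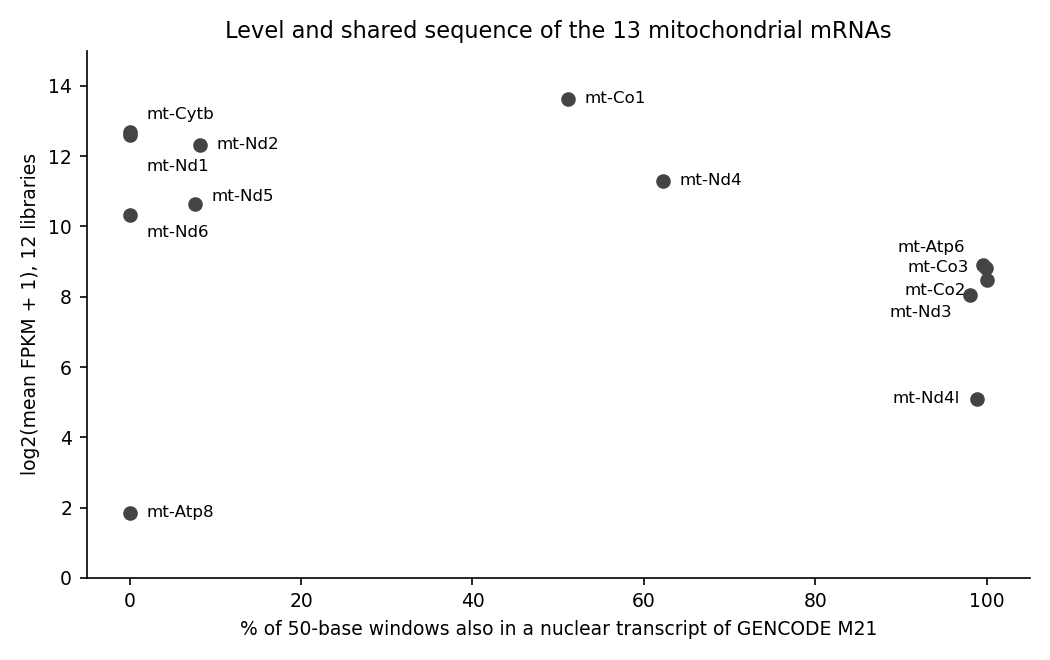
Mean level of the 13 mitochondrial mRNAs over the 12 libraries (y axis, log2 of FPKM + 1) against the percentage of their 50-base stretches that also occur in a nuclear transcript (x axis), 1 point per gene. The 5 genes at the right, with over 90% shared, lie at 33.3 to 477 FPKM. mt-Co1 at 51.1% has the highest level of all, and mt-Atp8 has the lowest. The 0% of mt-Atp8 covers annotated transcripts alone, and the sequence between the copies of its neighbours was not analysed.

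The mitochondrial share of all reads in genes was on average higher in HKO than in Flox hepatocytes. It was 8.16%, 7.07% and 5.42% in HKO_PA, 4.10%, 7.91% and 8.20% in HKO_BSA, 2.40%, 2.21% and 2.34% in Flox_PA, and 2.96%, 3.17% and 4.34% in Flox_BSA. With PA all 3 HKO libraries lay above all 3 Flox libraries, and with BSA the lowest HKO library (HKO_BSA 1) lay below the highest Flox library (Flox_BSA 3). The means were 6.88% ± 1.38 in HKO_PA, 6.74% ± 2.29 in HKO_BSA, 2.32% ± 0.095 in Flox_PA and 3.49% ± 0.741 in Flox_BSA (SD, n = 3 each). Counting error was small beside this spread: the widest 95% Wilson interval of a library was 0.027 percentage points. Intervals and detection limits here cover counting error only. Both groups of HKO libraries had their share spread over a range wider than that of Flox_PA, and HKO_BSA 1 stood apart from the other 2 libraries of its group.

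The classes did not move in equal measure. mRNAs took 94.2%, 94.2% and 93.7% of the mitochondrial reads in HKO_PA, 92.7%, 95.8% and 95.4% in HKO_BSA, 91.0%, 90.9% and 92.6% in Flox_PA, and 91.5%, 90.2% and 92.0% in Flox_BSA. There were 19.0, 18.9 and 17.2 mRNA reads per rRNA read in HKO_PA, 15.7, 27.1 and 24.0 in HKO_BSA, 12.1, 11.9 and 14.8 in Flox_PA, and 12.9, 10.5 and 13.3 in Flox_BSA. Every HKO library had more mRNA reads per rRNA read than every Flox library. The tRNA genes took 0.049% to 0.065% of reads in HKO_PA, 0.051% to 0.059% in HKO_BSA, 0.026% to 0.035% in Flox_PA and 0.038% to 0.045% in Flox_BSA. Ribosomal RNA is the most plentiful RNA of a mitochondrion, and its small part here cannot be read as a level in the cell, because selection of poly(A) RNA or removal of rRNA is a step not given in the sources used here.

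**Figure D2:**
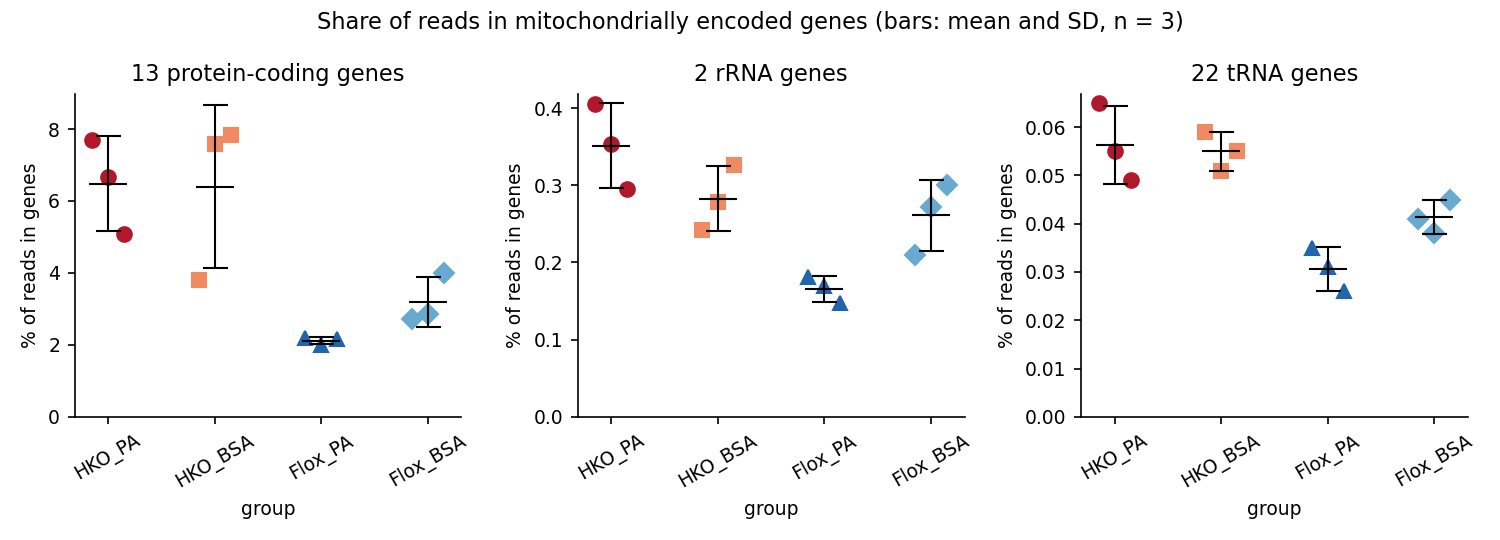
Percentage of reads in genes that fell in mitochondrial mRNAs, rRNAs and tRNAs (3 panels with their own y axes from 0), 1 point per library and 4 groups on the x axis, with the mean and SD (n = 3). The mRNA share of the 3 HKO_PA libraries, 5.07% to 7.69%, lies above that of the 3 Flox_PA libraries, 2.01% to 2.18%.

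HKO was set against Flox with each treatment, which asks how hepatocytes without normal G3bp1 differ. Differences are log2 fold changes on the scale log2(FPKM + 1), HKO minus Flox, from a limma model over all 9743 genes that averaged 1 FPKM or more over the 12 libraries, and a gene is said to have risen or fallen where its Benjamini-Hochberg adjusted p over all of them was under 0.05. Of the 37 mitochondrial genes 33 had such a mean. With PA, 30 of these 33 rose in HKO and 0 fell, where 16.9% of all genes tested rose and 18.8% fell (35.7% in either direction): 12 of 12 mRNAs other than mt-Atp8, 2 of 2 rRNAs and 15 of 18 tRNAs, with median log2 differences of 1.75, 1.24 and 1.12 against 0.00 for all genes. With BSA, 20 of 33 rose and 0 fell, where 9.63% of all genes rose and 10.8% fell (20.5% in either direction): 11 of 12 mRNAs other than mt-Atp8, 0 of 2 rRNAs and 8 of 18 tRNAs, with medians of 1.27, 0.30 and 0.84 against 0.04 for all genes. mt-Atp8, the remaining gene of both counts, is left out of the mRNA counts and medians because only its HKO values brought its mean to 1 FPKM. The mRNA medians differed with the sequence shared with nuclear transcripts. They were 1.33 (PA) and 1.13 (BSA) for the 5 other mRNAs with under 10% of shared stretches, and 1.79 and 1.12 for mt-Nd4 and mt-Co1. For the 5 with over 90%, whose levels are uncertain, they were 2.19 and 1.78. The 3 HKO libraries all lay above the 3 Flox libraries for 29 of 33 with PA (26% of all genes) and for 22 of 33 with BSA (19.7% of all genes). mt-Atp8 is among the 29 and not among the 22. The split of all genes depended on scaling: with PA 1644 rose and 1831 fell, against 1127 and 2537 under voom, and with BSA 938 rose and 1056 fell, against 540 and 1449 under voom and 642 and 1303 with scaling by nuclear genes. The mitochondrial counts under voom were 28 with PA and 16 with BSA, with 0 lower. A gene fell in HKO under 3 of the alternatives in each treatment: mt-Tv with PA (-1.67 without HKO_PA 1 or without both HKO libraries numbered 1, -1.27 with array weights) and mt-Ti with BSA (-0.54 without HKO_BSA 1 or without both HKO libraries numbered 1, -0.35 with array weights).

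The BSA count rested more on single libraries than the PA count did. Leaving out 1 library at a time gave 27 to 30 mitochondrial genes past the test with PA, but with BSA 7 without Flox_BSA 1, 12 without Flox_BSA 2, 9 without HKO_BSA 3 and 14 to 21 without 1 of the other BSA libraries, the fallen mt-Tv (PA) and mt-Ti (BSA) included. In these fits 23.4% to 43.1% of all genes passed with PA and 13.6% to 24.4% with BSA. The mt-Cytb, mt-Nd1, mt-Nd5, mt-Te, mt-Tl2, mt-Th and mt-Tg calls held with every library left out in turn in BSA. Hepatocyte markers moved with genotype as well. Of 9 tested, 5 rose with PA and 4 with BSA and 0 fell, where 16.9% (PA) and 9.63% (BSA) of all genes rose. Among the HKO libraries HKO_BSA 1, with the lowest mitochondrial share, also had the lowest summed hepatocyte markers (10728 FPKM). The part of cell makeup in the mitochondrial result was not tested.

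**Figure D3:**
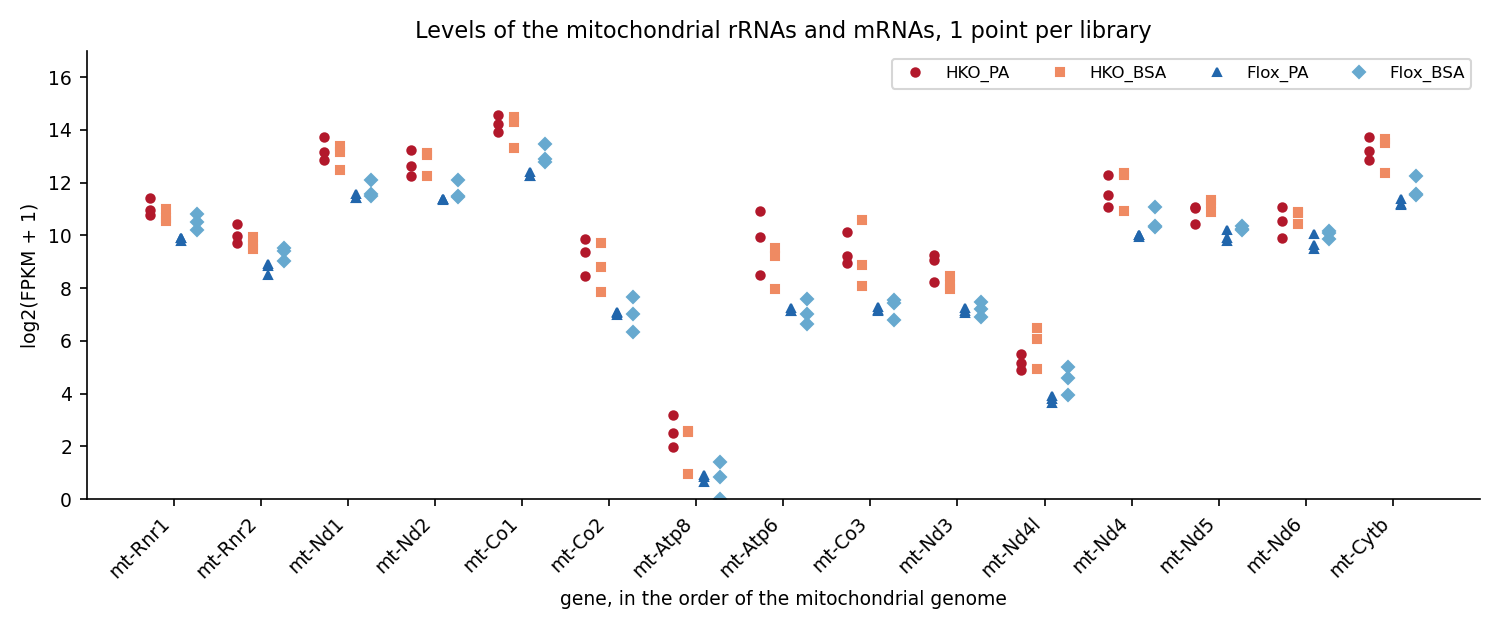
Levels of the 2 mitochondrial rRNAs and 13 mRNAs in the order of the genome (x axis), 1 point per library on a log2(FPKM + 1) axis, in 4 groups from HKO_PA (left) to Flox_BSA (right) within each gene. mt-Co1 has the highest points (10297 to 23954 FPKM in HKO libraries, 4832 to 11165 FPKM in Flox libraries) and mt-Atp8 the lowest, with 1 Flox_BSA library at 0.

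Complex I, the NADH dehydrogenase where electrons enter the chain, takes 7 of its subunits from the mitochondrial genome: mt-Nd1, mt-Nd2, mt-Nd3, mt-Nd4, mt-Nd4l, mt-Nd5 and mt-Nd6, all parts of its membrane arm. mt-Nd1 (ENSMUSG00000064341, chrMT:2751-3707, plus strand) had 13438, 9064 and 7510.4 FPKM in HKO_PA, 5769, 9213 and 10672 FPKM in HKO_BSA, 2719, 2724 and 3004 FPKM in Flox_PA, and 2899, 3039.9 and 4395 FPKM in Flox_BSA. Its HKO libraries lay above the Flox libraries of the same treatment throughout, and it rose by 1.79 (SE 0.26, adjusted p = 0.000161) with PA and by 1.29 (SE 0.26, adjusted p = 0.00266) with BSA. mt-Nd2 (ENSMUSG00000064345, chrMT:3914-4951, plus strand) had 9572, 6407 and 4860.1 FPKM in HKO_PA, 4919.8, 8531 and 8939.9 FPKM in HKO_BSA, 2686, 2603 and 2678 FPKM in Flox_PA, and 2835, 2859 and 4396 FPKM in Flox_BSA. Again the groups did not overlap within a treatment, and the log2 differences were 1.33 with PA and 1.13 with BSA, both past the test. mt-Nd5 (ENSMUSG00000064367, chrMT:11742-13565, plus strand) had 2138, 2122 and 1367 FPKM in HKO_PA, 1907, 2603 and 2377 FPKM in HKO_BSA, 1177, 953 and 879 FPKM in Flox_PA, and 1202, 1166 and 1295 FPKM in Flox_BSA. Its groups were apart too, and its rise of 0.88 with PA and 0.90 with BSA was of about equal size in both treatments.

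mt-Nd4 (ENSMUSG00000064363, chrMT:10167-11544, plus strand) had 5027, 2986 and 2177 FPKM in HKO_PA, 1929, 4956 and 5285 FPKM in HKO_BSA, 1043, 979 and 1034 FPKM in Flox_PA, and 1286, 1327 and 2179 FPKM in Flox_BSA. With BSA the HKO_BSA 1 value lay below that of Flox_BSA 3, and with PA the groups were apart. The log2 differences of 1.65 with PA and 1.25 with BSA both passed. mt-Nd4l (ENSMUSG00000065947, chrMT:9877-10173, plus strand), whose end overlaps mt-Nd4, had 44.6, 35.0 and 28.8 FPKM in HKO_PA, 29.7, 66.6 and 88.2 FPKM in HKO_BSA, 11.4, 12.7 and 14.0 FPKM in Flox_PA, and 14.4, 23.1 and 31.4 FPKM in Flox_BSA. HKO_BSA 1 lay below Flox_BSA 3 here as well, and the rises were 1.42 with PA and 1.31 with BSA. mt-Nd3 (ENSMUSG00000064360, chrMT:9459-9806, plus strand) had 608, 296 and 540.4 FPKM in HKO_PA, 277, 252 and 349 FPKM in HKO_BSA, 150.3, 139 and 131 FPKM in Flox_PA, and 118, 148 and 179 FPKM in Flox_BSA. Its groups did not overlap in either treatment, and it rose by 1.71 with PA and 0.98 with BSA.

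mt-Nd6 (ENSMUSG00000064368, chrMT:13552-14070) is the 1 protein-coding gene on the minus strand, opposite to the other 12. It had 2153, 1506 and 947 FPKM in HKO_PA, 1374, 1902 and 1821 FPKM in HKO_BSA, 1054, 797 and 722 FPKM in Flox_PA, and 1084, 921 and 1158 FPKM in Flox_BSA. With PA the HKO_PA 3 value lay below Flox_PA 1, and with BSA the groups were apart. The difference was 0.78 (SE 0.26, adjusted p = 0.0305) with PA and 0.68 (SE 0.26, adjusted p = 0.0801) with BSA, so it passed with PA alone, and the PA call was lost under 10 of the alternatives, among them no filter on low values (0.78, the same value against more genes tested) and leaving out HKO_PA 1 (0.50), HKO_PA 2, Flox_PA 2 or Flox_PA 3. Whether the change of mt-Nd6 differed between the treatments is covered by the interaction below. The strand setting of the counting was also not given in the sources used here, so reads of mt-Nd6 and of RNA from the opposite strand cannot be told apart.

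Complex III, which passes electrons to cytochrome c, has mt-Cytb (cytochrome b) as its 1 mitochondrially encoded subunit. mt-Cytb (ENSMUSG00000064370, chrMT:14145-15288, plus strand) had 13749, 9331 and 7366 FPKM in HKO_PA, 5249.6, 11622 and 12842 FPKM in HKO_BSA, 2335, 2305 and 2652 FPKM in Flox_PA, and 3063, 2979.8 and 4921 FPKM in Flox_BSA. All HKO libraries lay above all Flox libraries with PA and with BSA, and mt-Cytb rose by 2.02 (SE 0.32, adjusted p = 0.000373) with PA and by 1.38 (SE 0.32, adjusted p = 0.00763) with BSA. Under quantile normalization, which forces the highest values of all libraries to be alike, the BSA difference was 0.28 and no longer passed. Set against mt-Nd6, its neighbour on the opposite strand, mt-Cytb had 6.39, 6.20 and 7.77 times the FPKM in HKO_PA, 3.82, 6.11 and 7.05 times in HKO_BSA, 2.22, 2.89 and 3.67 times in Flox_PA, and 2.83, 3.24 and 4.25 times in Flox_BSA. The ratio was higher in all 3 HKO_PA libraries than in all 3 Flox_PA libraries, and with BSA HKO_BSA 1 fell within the Flox_BSA range. This ratio involves no library divisor.

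Complex IV, cytochrome c oxidase, takes its 3 core subunits from the mitochondrial genome. mt-Co1 (ENSMUSG00000064351, chrMT:5328-6872, plus strand), the catalytic subunit and the mRNA with the highest level per length, had 23954, 19124 and 15377 FPKM in HKO_PA, 10297, 19958 and 22796 FPKM in HKO_BSA, 4935, 4832 and 5381 FPKM in Flox_PA, and 7115, 7589.8 and 11165 FPKM in Flox_BSA. With PA the groups were apart, and with BSA HKO_BSA 1 lay below Flox_BSA 3. mt-Co1 rose by 1.93 (SE 0.28, adjusted p = 0.000168) with PA and by 0.99 (SE 0.28, adjusted p = 0.0242) with BSA, where the call was lost without any 1 of Flox_BSA 1, Flox_BSA 2, HKO_BSA 2 and HKO_BSA 3. mt-Co2 (ENSMUSG00000064354, chrMT:7013-7696, plus strand), which takes electrons from cytochrome c, had 660.2, 925 and 354 FPKM in HKO_PA, 231, 446 and 838 FPKM in HKO_BSA, 124, 137 and 131 FPKM in Flox_PA, and 80.7, 129 and 201 FPKM in Flox_BSA. mt-Co3 (ENSMUSG00000064358, chrMT:8607-9390, plus strand) had 1119, 596 and 497 FPKM in HKO_PA, 273, 1550.0 and 475 FPKM in HKO_BSA, 157, 143 and 139 FPKM in Flox_PA, and 109, 189 and 174 FPKM in Flox_BSA. Both had HKO libraries above the Flox libraries of the same treatment throughout, with log2 differences of 2.19 (PA) and 1.78 (BSA) for mt-Co2 and 2.24 (PA) and 1.93 (BSA) for mt-Co3. Both are among the genes with over 90% of stretches shared with the nuclear copies.

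Complex V, the ATP synthase, has mt-Atp6, part of its proton channel, and mt-Atp8, a short subunit beside it. mt-Atp6 (ENSMUSG00000064357, chrMT:7927-8607, plus strand) had 1954, 993 and 365 FPKM in HKO_PA, 251, 728 and 591 FPKM in HKO_BSA, 140.2, 139 and 151 FPKM in Flox_PA, and 97.7, 129 and 189 FPKM in Flox_BSA. The HKO_PA libraries differed among themselves by far more than the Flox_PA libraries did, yet the groups were apart in both treatments. Its differences of 2.63 (SE 0.50, adjusted p = 0.00131) with PA and 1.83 (SE 0.50, adjusted p = 0.0181) with BSA were accompanied by a standard error higher than that of any other mRNA. mt-Atp8 (ENSMUSG00000064356, chrMT:7766-7969, plus strand) had 4.74, 8.11 and 2.92 FPKM in HKO_PA, 0.948, 4.97 and 4.83 FPKM in HKO_BSA, 0.805, 0.870 and 0.557 FPKM in Flox_PA, and 0.768, 0 and 1.64 FPKM in Flox_BSA. This was 9 to 25 reads in HKO_PA, 3 to 17 in HKO_BSA, 2 to 3 in Flox_PA and 0 to 6 in Flox_BSA, and the Flox means were under 1 FPKM, so the gene was tested only because of its HKO values and its differences of 1.76 (PA) and 1.29 (BSA) add no support. mt-Atp8 shares no 50-base stretch with an annotated nuclear transcript; sequence outside annotated transcripts was not analysed here.

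The values of the 7 nuclear copies were also higher in HKO than in Flox on average. Reads from stretches identical in a copy and its gene cannot be assigned to either, so these values add no separate support. The reads counted to the copies made up 0.059% to 0.135% of all reads in HKO_PA and 0.048% to 0.111% in HKO_BSA. In Flox_PA they made up 0.027% to 0.033% and in Flox_BSA 0.025% to 0.037%. All 7 rose with PA, where 16.9% of all genes tested rose, by 1.23 (Gm10222), 1.57 (Gm10925), 1.72 (Gm28439), 1.82 (Gm28437), 1.83 (Gm28661), 2.25 (Gm28438) and 2.27 (Gm29216). With BSA 6 of 7 rose, where 9.63% of all genes rose, by 1.41 (Gm29216), 1.44 (Gm10925), 1.47 (Gm10222), 1.57 (Gm28439), 1.62 (Gm28661) and 1.68 (Gm28437). Library by library a copy and its gene could differ: Gm28438 had 349, 214 and 40.5 FPKM in HKO_PA, where mt-Nd3 had 608, 296 and 540.4 FPKM. The exception with BSA was Gm28438, with a difference of 1.09 (SE 0.53, adjusted p = 0.179), whereas mt-Nd3, the gene it copies, passed. Gm10222 was found by its position and was not among the copies listed at first. Adding the reads of the copies changed the mitochondrial share to 6.99%, 6.82%, 2.34% and 3.52% as means of HKO_PA, HKO_BSA, Flox_PA and Flox_BSA.

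Among the mRNAs alone, whose shares of the summed mRNA reads are free of the library divisor, the balance also differed. mt-Co1 took most, 41.0%, 44.6% and 46.1% in HKO_PA, 39.7%, 40.3% and 42.2% in HKO_BSA, 37.8%, 38.8% and 40.1% in Flox_PA, and 44.0%, 45.4% and 45.3% in Flox_BSA. Its share was higher in HKO than in Flox with PA and lower in HKO than in Flox with BSA, with no overlap in either treatment. mt-Cytb took 16.1% to 17.4% in HKO_PA, 14.999% to 17.6% in HKO_BSA, 13.2% to 14.6% in Flox_PA and 13.2% to 14.8% in Flox_BSA, so its share was higher in every HKO library. mt-Nd5 took 4.31% to 5.85% in HKO_PA, 5.20% to 8.69% in HKO_BSA, 7.72% to 10.6% in Flox_PA and 6.20% to 8.77% in Flox_BSA, and its share was lower in all HKO_PA than in all Flox_PA libraries. mt-Nd6 took 0.955% to 1.24% in HKO_PA, 1.13% to 1.78% in HKO_BSA, 1.81% to 2.71% in Flox_PA and 1.58% to 2.25% in Flox_BSA. No test was run on these shares, which are tied to each other because they sum to the whole.

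The rRNAs form the small (mt-Rnr1) and the large (mt-Rnr2) subunit of the mitochondrial ribosome and stand at the start of the genome's main coding strand. mt-Rnr1 (ENSMUSG00000064337, chrMT:70-1024, plus strand) had 2701, 2012 and 1759 FPKM in HKO_PA, 1493, 1626 and 2025 FPKM in HKO_BSA, 959.7, 951 and 873 FPKM in Flox_PA, and 1175, 1457 and 1801 FPKM in Flox_BSA. mt-Rnr2 (ENSMUSG00000064339, chrMT:1094-2675, plus strand) had 1379, 1004 and 832 FPKM in HKO_PA, 713, 800.2 and 974 FPKM in HKO_BSA, 478, 452 and 361 FPKM in Flox_PA, and 516, 669.9 and 728 FPKM in Flox_BSA. With PA every HKO library lay above every Flox library for both, and with BSA the groups overlapped for both. mt-Rnr1 rose by 1.19 (SE 0.20, adjusted p = 0.000488) with PA, and its difference with BSA was 0.22 (SE 0.20, adjusted p = 0.481), a value that was -0.11 under quantile normalization. mt-Rnr2 rose by 1.29 (SE 0.21, adjusted p = 0.000352) with PA and differed by 0.38 (SE 0.21, adjusted p = 0.226) with BSA. The ratio of mt-Rnr1 to mt-Rnr2 in FPKM stayed between 1.96 and 2.12 in HKO libraries and between 2.01 and 2.48 in Flox libraries.

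The tRNAs carry the amino acids to the mitochondrial ribosome. Their genes are 59 to 75 bases long, which is shorter than a usual library fragment. Reads counted to them cannot be told apart from reads of longer RNAs that hold the tRNA or of the opposite strand, so their FPKM is not a level of mature tRNA. Their means spanned from 0 to 3684 FPKM. The highest were mt-Tp (proline), mt-Tc (cysteine) and mt-Tn (asparagine), all on the minus strand, and the 1 tRNA that fell with PA in Flox was mt-Ty (tyrosine), also on the minus strand. Their sequences, given for the reader to see what was counted, carry the anticodon in capitals, in the RNA's own 5′ to 3′ direction. mt-Tp lies at chrMT:15356-15422, mt-Tc at chrMT:5192-5257, mt-Tn at chrMT:5089-5159 and mt-Ty at chrMT:5260-5326.
mt-Tp: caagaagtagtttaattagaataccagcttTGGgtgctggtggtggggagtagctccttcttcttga
mt-Tc: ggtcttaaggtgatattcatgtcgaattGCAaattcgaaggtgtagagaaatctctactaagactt
mt-Tn: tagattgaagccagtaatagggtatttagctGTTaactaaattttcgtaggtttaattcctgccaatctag
mt-Ty: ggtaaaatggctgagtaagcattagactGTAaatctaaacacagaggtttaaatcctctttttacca

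mt-Tp had 5598, 4480.2 and 3649.9 FPKM in HKO_PA, 5639, 4091 and 4952 FPKM in HKO_BSA, 2436, 2428 and 1978 FPKM in Flox_PA, and 2908, 2580.0 and 3472 FPKM in Flox_BSA. Its groups were apart in both treatments, and it rose by 0.99 (SE 0.20, adjusted p = 0.00188) with PA and by 0.71 (SE 0.20, adjusted p = 0.02) with BSA. mt-Tc had 2977, 1862 and 1941 FPKM in HKO_PA, 1831, 1731 and 1749 FPKM in HKO_BSA, 1258, 1071 and 934 FPKM in Flox_PA, and 1689, 1341 and 1610.0 FPKM in Flox_BSA. mt-Tn had 1407, 803 and 880.4 FPKM in HKO_PA, 747, 818 and 760.5 FPKM in HKO_BSA, 590.1, 515 and 375 FPKM in Flox_PA, and 643, 620.2 and 615 FPKM in Flox_BSA. Both had HKO values above the Flox values of the same treatment throughout, but the rises of 1.03 and 1.04 with PA passed and the BSA differences of 0.20 and 0.31 did not, with adjusted p = 0.512 for mt-Tc and 0.342 for mt-Tn. The BSA difference of mt-Tc was -0.13 under quantile normalization. mt-Ty had 154, 169.8 and 149 FPKM in HKO_PA, 161, 196 and 247 FPKM in HKO_BSA, 67.8, 76.8 and 66.2 FPKM in Flox_PA, and 119, 128 and 158 FPKM in Flox_BSA. It rose by 1.16 (SE 0.16, adjusted p = 0.000121) with PA and by 0.56 (SE 0.16, adjusted p = 0.0268) with BSA, the BSA call being lost under 11 of the alternatives, among them quantile normalization (0.36) and leaving out HKO_BSA 3 (0.40).

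Next in level were mt-Te (glutamate), mt-Tl2 (leucine), mt-Tw (tryptophan), mt-Ts2 (serine), mt-Tl1 (leucine) and mt-Th (histidine). mt-Te (minus strand) had 332, 318 and 163 FPKM in HKO_PA, 213, 284 and 360.2 FPKM in HKO_BSA, 129, 101 and 92.3 FPKM in Flox_PA, and 101, 117 and 138 FPKM in Flox_BSA. mt-Tl2 had 363, 187 and 237 FPKM in HKO_PA, 269.5, 155 and 242 FPKM in HKO_BSA, 84.9, 99.9 and 73.6 FPKM in Flox_PA, and 25.0, 100.5 and 58.2 FPKM in Flox_BSA. Both had groups apart in both treatments, and mt-Tl2 showed the highest BSA difference of all 33, 2.01 (SE 0.39, adjusted p = 0.00198), with 1.55 with PA, while mt-Te rose by 1.27 with PA and 1.24 with BSA. mt-Tw had 197, 151 and 124 FPKM in HKO_PA, 147, 170.4 and 156 FPKM in HKO_BSA, 98.1, 83.0 and 48.4 FPKM in Flox_PA, and 83.4, 107 and 173 FPKM in Flox_BSA. mt-Ts2 had 79.5, 26.9 and 37.0 FPKM in HKO_PA, 45.9, 46.2 and 55.0 FPKM in HKO_BSA, 21.4, 18.04 and 20.2 FPKM in Flox_PA, and 18.6, 22.7 and 31.2 FPKM in Flox_BSA. Of these, mt-Ts2 rose in both treatments (1.08 with PA, 1.02 with BSA), and mt-Tw rose with PA (1.06) and differed by 0.44 with BSA, where Flox_BSA 3 lay above all 3 HKO_BSA libraries. mt-Tl1 had 62.5, 47.6 and 15.9 FPKM in HKO_PA, 30.9, 73.6 and 68.7 FPKM in HKO_BSA, 12.4, 9.46 and 9.85 FPKM in Flox_PA, and 20.9, 28.6 and 35.0 FPKM in Flox_BSA. mt-Th had 63.3, 44.4 and 30.6 FPKM in HKO_PA, 52.9, 45.4 and 33.7 FPKM in HKO_BSA, 21.3, 12.4 and 18.7 FPKM in Flox_PA, and 14.8, 24.0 and 15.8 FPKM in Flox_BSA. mt-Th rose by 1.33 with PA and 1.24 with BSA with groups apart in both treatments, and mt-Tl1, which rose by 1.70 with PA, overlapped between the genotypes with BSA.

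The rest were counted with few reads, no more than 38 in any library. mt-Tr (arginine) had 41.6, 15.6 and 23.4 FPKM in HKO_PA, 20.8, 14.9 and 27.3 FPKM in HKO_BSA, 20.9, 17.4 and 6.69 FPKM in Flox_PA, and 3.84, 12.6 and 8.21 FPKM in Flox_BSA. mt-Tg (glycine) had 18.6, 16.5 and 15.6 FPKM in HKO_PA, 16.1, 16.8 and 22.2 FPKM in HKO_BSA, 10.5, 3.48 and 4.18 FPKM in Flox_PA, and 6.15, 7.89 and 9.03 FPKM in Flox_BSA. mt-Tg rose in both treatments with groups apart (1.47 with PA, 1.16 with BSA). mt-Tr passed with BSA alone (1.34, adjusted p = 0.0466), a call lost under 12 of 21 alternatives, among them voom and scaling by nuclear genes. With PA its difference was 0.82, which was -0.185 with a trend in GC content removed. mt-Ta (alanine, minus strand) had 19.4, 15.3 and 8.64 FPKM in HKO_PA, 11.2, 10.1 and 15.1 FPKM in HKO_BSA, 6.35, 5.14 and 7.41 FPKM in Flox_PA, and 9.84, 9.33 and 7.28 FPKM in Flox_BSA. mt-Ti (isoleucine) had 16.2, 10.5 and 12.5 FPKM in HKO_PA, 13.1, 4.60 and 6.72 FPKM in HKO_BSA, 4.76, 4.28 and 4.12 FPKM in Flox_PA, and 9.09, 7.77 and 8.90 FPKM in Flox_BSA. Both rose with PA (1.03 for mt-Ta and 1.37 for mt-Ti), and with BSA the differences were 0.41 for mt-Ta and -0.18 for mt-Ti. mt-Tm (methionine) had 12.9, 7.67 and 7.68 FPKM in HKO_PA, 10.3, 16.5 and 11.8 FPKM in HKO_BSA, 5.56, 5.14 and 0.824 FPKM in Flox_PA, and 3.03, 7.77 and 12.9 FPKM in Flox_BSA. mt-Tq (glutamine, minus strand) had 20.96, 12.1 and 6.53 FPKM in HKO_PA, 9.08, 5.36 and 7.34 FPKM in HKO_BSA, 2.31, 2.50 and 4.002 FPKM in Flox_PA, and 5.15, 4.53 and 3.93 FPKM in Flox_BSA. Both rose with PA, mt-Tq by 1.74 and mt-Tm by 1.28 at an adjusted p of 0.0499 that missed the threshold under 17 of the alternatives.

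mt-Tt (threonine) had 15.6, 8.89 and 1.98 FPKM in HKO_PA, 6.73, 7.57 and 15.6 FPKM in HKO_BSA, 2.45, 7.94 and 5.09 FPKM in Flox_PA, and 1.56, 3.20 and 3.33 FPKM in Flox_BSA. mt-Tv (valine) had 4.31, 0 and 0 FPKM in HKO_PA, 1.87, 7.35 and 2.52 FPKM in HKO_BSA, 2.38, 0.857 and 4.12 FPKM in Flox_PA, and 3.03, 0.777 and 0.809 FPKM in Flox_BSA. Neither passed in either treatment, with differences of 0.46 (PA) and 1.52 (BSA) for mt-Tt and -0.86 (PA) and 0.90 (BSA) for mt-Tv, and the PA difference of mt-Tt was -0.079 without HKO_PA 1 and -0.045 with the GC trend removed. The 4 tRNAs under a mean of 1 FPKM were not tested. mt-Tk (lysine) had 0 to 5 reads and was at 0 in 9 libraries, mt-Ts1 (serine, minus strand) had 0 to 1 reads and was at 0 in 8, mt-Td (aspartate) had 1 read in 1 Flox_BSA library, and mt-Tf (phenylalanine) was at 0 in all 12. A count of 0 allows up to 3 reads, for mt-Tf 2.30 to 3.28 FPKM per library. mt-Tf was thus not detected rather than shown to be absent.

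By strand, 11 of 11 plus-strand mRNAs other than mt-Atp8 rose in both treatments, with medians of 1.79 (PA) and 1.29 (BSA). Of all genes tested 16.9% rose with PA and 9.63% with BSA, which is the share to set beside the counts here. Of the tested tRNAs on the plus strand 8 of 11 rose with PA and 5 of 11 with BSA, with medians of 1.28 and 1.02, and of those on the minus strand 7 of 7 rose with PA and 3 of 7 with BSA, with medians of 1.04 and 0.56. The difference between strands was not tested.

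**Figure D4:**
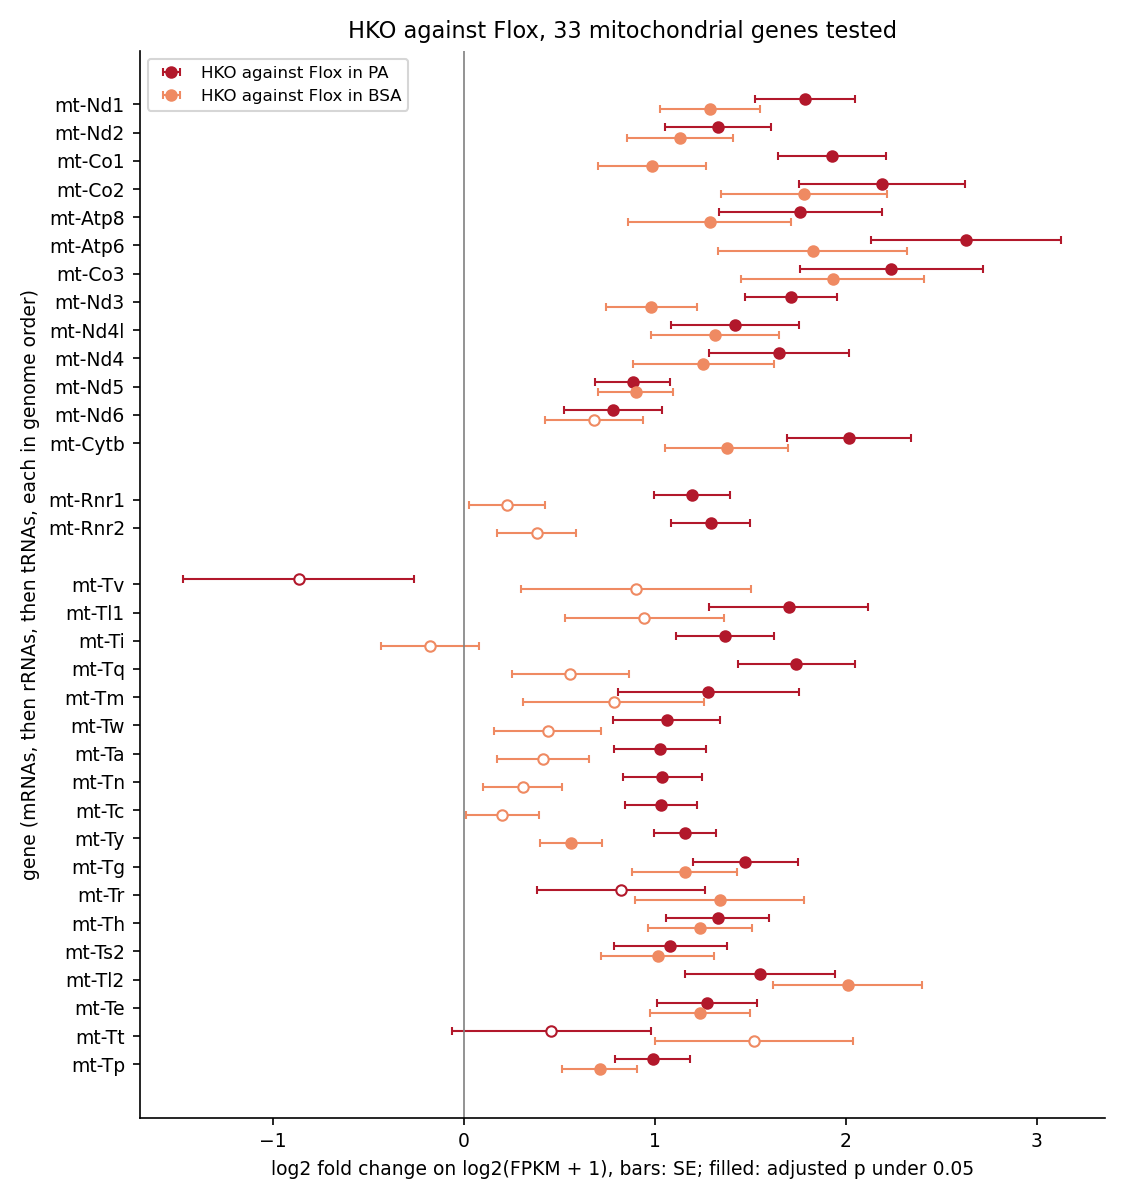
Log2 fold change of HKO over Flox with PA (dark red) and with BSA (orange) for the 33 mitochondrial genes tested, mRNAs at the top, then rRNAs, then tRNAs, each in genome order, with bars of 1 SE and filled points where the adjusted p was under 0.05. All 13 mRNAs are filled with PA, the rRNAs are filled with PA and open with BSA, and mt-Tv (PA) and mt-Ti (BSA) are the points left of 0. mt-Atp8, 1 of the 13, was tested only because of its HKO values.

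PA was set against BSA within each genotype, which asks what the treatment does. In HKO 0 of 33 mitochondrial genes passed (4 at an unadjusted p under 0.05 in limma), where 1.68% of all genes rose and 1.25% fell (2.94% in either direction), and the median log2 difference of the 13 mRNAs was 0.20. That median changed sign without HKO_BSA 1 (-0.31), without HKO_PA 1 (-0.11), without both (-0.55) and with array weights (-0.25), so it carries no direction. The smallest p-values belonged to mt-Ti, with a difference of 0.71 (SE 0.26, adjusted p = 0.141), and mt-Nd3, with 0.66 (SE 0.24, adjusted p = 0.143). The HKO_PA libraries lay above all HKO_BSA libraries for mt-Tc alone (9.1% of all genes). In Flox 1 of 33 fell and 0 rose, where 0.913% of all genes fell and 1.29% rose (2.21% in either direction). That gene was mt-Ty, at 67.8, 76.8 and 66.2 FPKM in Flox_PA and 119, 128 and 158 FPKM in Flox_BSA, which is -0.93 (SE 0.16, adjusted p = 0.00925). The call was lost without Flox_BSA 3, without Flox_PA 3 and with the GC trend removed.

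For the other classes in Flox the median differences were -0.29 (mRNAs), -0.61 (rRNAs) and -0.40 (tRNAs), against 0.01 for all genes, and 9 of 33 had an unadjusted p under 0.05. The mRNA median was -0.10 without Flox_BSA 3 and -0.03 with the GC trend removed. The 3 Flox_PA libraries lay below the 3 Flox_BSA libraries for 13 of 33 (16.9% of all genes) and above them for 0. mt-Co1 differed by -0.74 (SE 0.28, adjusted p = 0.229), mt-Rnr1 by -0.65 (SE 0.20, adjusted p = 0.13) and mt-Rnr2 by -0.56 (SE 0.21, adjusted p = 0.212), none of which passed. With the fit limited to the Flox libraries 8 fell, where 15.8% of all genes passed in either direction, and with weights for each library 14 fell and 3 rose, where 37.4% of all genes passed, so the count in Flox depended on how the spread was estimated. Of the 16 macrophage markers 3 fell with PA in Flox, where 0.913% of all genes fell. With PA in HKO 3 rose, where 1.68% of all genes rose. The part of the macrophage markers in these values was not tested.

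**Figure D5:**
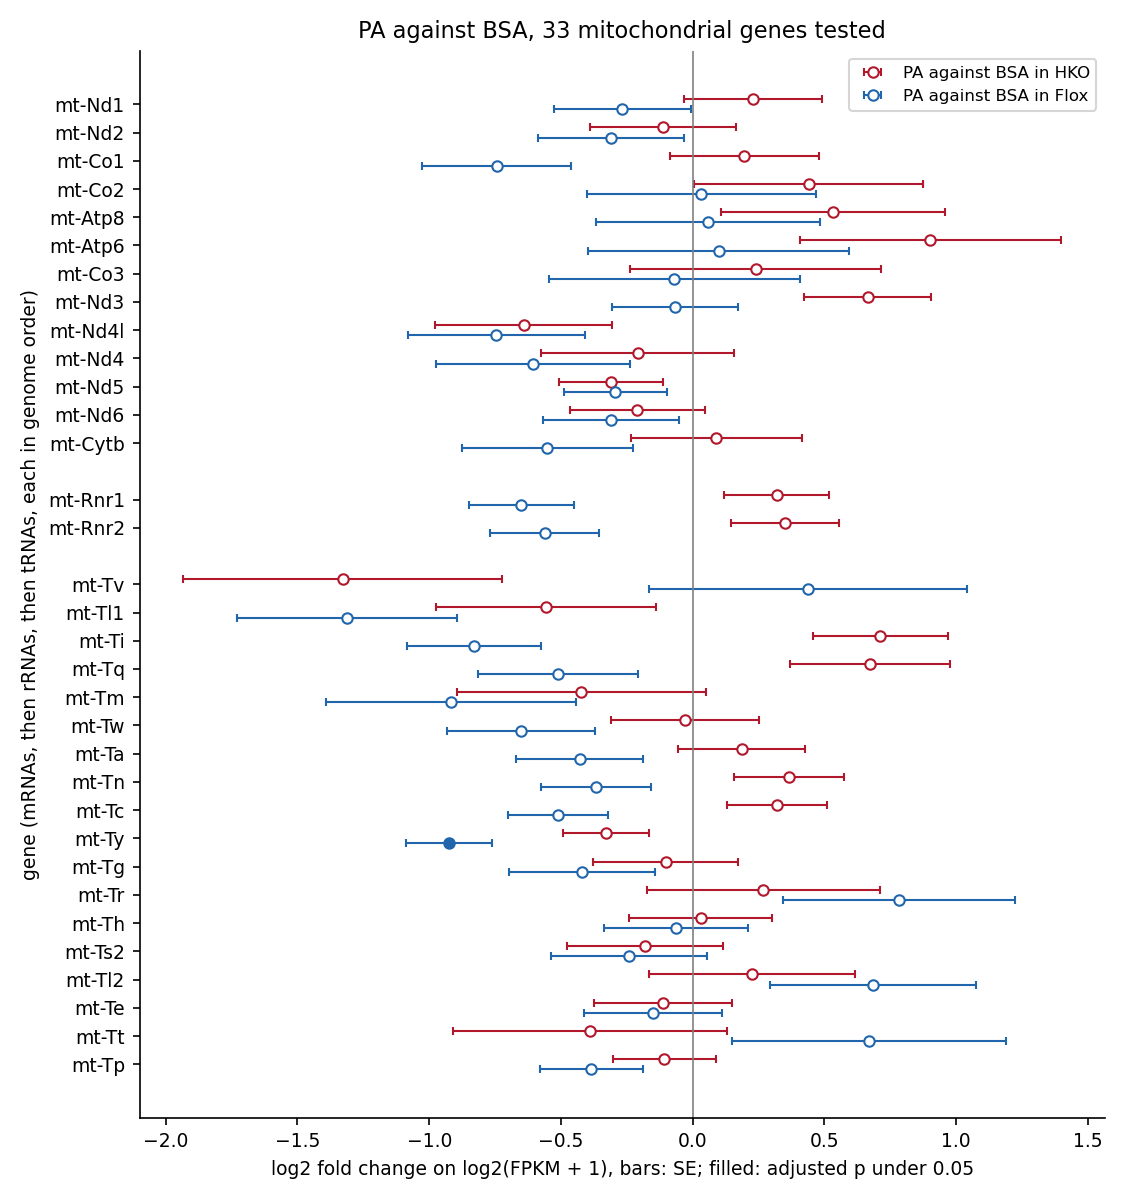
Log2 fold change of PA over BSA in HKO (red) and in Flox (blue) for the 33 mitochondrial genes tested, with bars of 1 SE, filled where the adjusted p was under 0.05. mt-Ty in Flox is the 1 filled point, and in Flox most points lie left of 0, with medians of -0.29 for mRNAs and -0.61 for rRNAs.

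The interaction, in which the PA effect of Flox is subtracted from that of HKO, tests whether the genotype changes the response, and equally whether the genotype difference itself differs between treatments. Of the 33, 0 passed (9 at an unadjusted p under 0.05 in limma), where 0.267% of all genes did. The smallest adjusted p belonged to mt-Ti, 1.54 (SE 0.36, adjusted p = 0.081), followed by mt-Rnr1 at 0.97 (SE 0.28, adjusted p = 0.132), mt-Rnr2 at 0.91 (SE 0.29, adjusted p = 0.17) and mt-Tc at 0.83 (SE 0.27, adjusted p = 0.175). For mt-Nd6 the interaction was 0.10 (SE 0.36, adjusted p = 0.896). So the higher counts with PA than with BSA, and the rRNAs passing with PA alone, were not shown to differ between the treatments.

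The mRNA of the nuclear-encoded machinery was looked up in lists. Of 7 tested genes of mitochondrial transcription, 3 rose and 1 fell in HKO with PA, where 16.9% of all genes rose and 18.8% fell, and 0 passed with BSA (0 at an unadjusted p under 0.05 in limma). With PA those were Tefm (an elongation factor, 1.02), Tfb2m (which opens the promoter, 0.80), Mterf3 (0.74) and Polrmt (the RNA polymerase, -0.47). Tefm had 7.35 ± 1.83 FPKM in HKO_PA and 3.11 ± 0.844 FPKM in Flox_PA, and Polrmt had 5.72 ± 1.2 FPKM in HKO_PA and 8.21 ± 0.286 FPKM in Flox_PA (SD, n = 3 each). With BSA the smallest p-values of the list were those of Tfb2m (0.37, adjusted p = 0.286) and Mrpl12 (0.32, adjusted p = 0.326). Of 12 genes of mitochondrial DNA maintenance 3 rose (Ssbp1, Mpv17 and Mgme1) and 1 fell (Atad3a, -0.57) with PA and 0 passed with BSA (0 at an unadjusted p under 0.05 in limma). With BSA the smallest p-values there belonged to Slc25a33 (0.21, adjusted p = 0.269) and Mpv17 (-0.21, adjusted p = 0.323). Of 19 genes of tRNA release and RNA processing 2 rose and 4 fell with PA, among them Ptcd2 (0.70), Ptcd1 (-0.68), Elac2 (which trims the 3′ ends of tRNAs, -0.49) and Tbrg4 (-0.45), and 1 rose with BSA, Mrm2 (an rRNA methyltransferase, 0.54). With PA the DNA maintenance and processing lists thus had 4 of 12 and 6 of 19 genes called in either direction, near the 35.7% of all genes, which shows nothing particular to them. None of 8 genes of RNA stability, polyadenylation and decay passed in either treatment, with medians of 0.05 (PA) and 0.00 (BSA) and 0 at an unadjusted p under 0.05 in limma. Their smallest p-values were those of Rexo2 (0.23, adjusted p = 0.175) and Slirp (0.28, adjusted p = 0.221) with PA and of Lrpprc (-0.305, adjusted p = 0.202) and Mtpap (-0.27, adjusted p = 0.257) with BSA.

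Of 16 genes listed for tRNA modification 1 rose in both treatments, Nsun4, which methylates rRNA of the small subunit (0.37 with PA, 0.45 with BSA), and of 8 upstream regulators of mitochondrial biogenesis 1 fell with PA, Pprc1 (a relative of the coactivator PGC-1, -0.74), and 1 with BSA, Tfeb (a regulator of lysosomal genes, -0.47). The nuclear-encoded subunits of the same respiratory complexes and ATP synthase, gathered by gene symbol after the data had been seen, numbered 78. Of these 49 rose with PA and 16 with BSA and 0 fell, where 16.9% (PA) and 9.63% (BSA) of all genes rose. Their medians were 0.63 and 0.38, beside 1.75 and 1.27 for the 12 mitochondrial mRNAs other than mt-Atp8. For the 5 of those 12 with under 10% of shared stretches the medians were 1.33 and 1.13. The largest differences among the nuclear-encoded subunits were those of Uqcrc2 (1.41), Uqcrb (1.28), Ndufa1 (1.25) and Cox7b (1.19) with PA and of Uqcrb (0.96), Cox7b (0.83), Ndufa1 (0.77) and Uqcrh (0.74) with BSA, the Uqcr genes belonging to complex III. Uqcrc2 had 82.6 ± 10.8 FPKM in HKO_PA and 30.4 ± 3.74 FPKM in Flox_PA, and Uqcrb had 116 ± 23.5 FPKM in HKO_BSA and 58.5 ± 4.36 FPKM in Flox_BSA. Ndufa1 of complex I had 163 ± 29.0 FPKM in HKO_BSA and 93.8 ± 3.41 FPKM in Flox_BSA, and Cox7b of complex IV had 117 ± 12.9 FPKM in HKO_BSA and 65.1 ± 2.43 FPKM in Flox_BSA (SD, n = 3 each). In PA against BSA within a genotype and in the interaction, 0 members of all these nuclear lists passed.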

How the data were processed

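The authors deposited 1 table of FPKM for 54532 genes, 1 column per library, with gene lengths. Per the submitters' processing notes the build is GRCm38 (mm10); aligner, counter, annotation release, strand setting and treatment of multiply placed reads were not given in the sources used here. RNA was extracted with RNeasy columns and made into libraries with an NEBNext Ultra kit, per the labels' protocols. FPKM times length gave whole reads (100% of values of up to 1000 reads within 0.01 of a whole number), which were used for shares. limma 3.58.1 (R 4.3.3) was fitted to log2(FPKM + 1) of the 9743 genes averaging 1 FPKM or more, with 4 group means, a trended variance prior and two-sided p-values adjusted by Benjamini-Hochberg over all genes tested; folds of low genes are understated on this scale. No test was run on shares or ratios. The fit was tested on simulated reads with changes planted in HKO_BSA and the same spread setting for all genes. It called 26% of 1.5-fold, 80.4% of 2-fold and 100% of 3-fold and 4-fold changes, and 6 unchanged genes. That setting need not match the spread of these libraries, and smaller changes can be missed. Sequences were read from GENCODE M21 transcripts; figures were drawn with matplotlib 3.10.9 (Python 3.11.15). The members are all genes on MT; the choice to report on them, and the gene lists, were made with earlier results of these data known. Every mitochondrial gene is described; of lists of nuclear-encoded machinery, up to 4 genes past the test are named, by absolute fold change, or the 2 with the smallest p where none passed (for HKO against Flox; the other comparisons, in which none passed, are given as counts); the list of nuclear subunits was added after the data were seen. Alternatives covered pseudocount, filter, scaling, spread, block, trends in length and GC content, nuclear copies and libraries left out.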

Additional observations from a re-analysis of the deposited data

How the results depend on the processing

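As reported, 1 mitochondrial gene passed for the PA effect in Flox, 0 for the PA effect in HKO, 20 for the genotype difference with BSA, 30 for that with PA and 0 for the interaction. Percentages in brackets are the shares of all genes that passed under the same setting. In Flox the count was 2 with quantile normalization (2.95%), 2 with the length trend removed (2.65%) and 0 with the GC trend removed (3.66%). It was 17 with array weights (37.4%), 8 with only the groups compared (15.8%) and 9 without both HKO libraries numbered 1 (13.9%). In HKO it was 8 with array weights (15.7%) and 5 without both HKO libraries numbered 1 (6.97%). For HKO against Flox in BSA it was 12 with no filter (11.4%) and 31 with array weights (59.2%). For the interaction it was 4 with array weights (17.1%) and 1 without both HKO libraries numbered 1 (0.903%). Leaving out 1 library gave 0 to 2 in Flox (0.657% to 1.73% of all genes), 0 to 2 in HKO (1.32% to 7.96%), 7 to 21 with BSA (13.6% to 24.4%), 27 to 30 with PA (23.4% to 43.1%) and 0 to 1 for the interaction (0% to 2.72%). For HKO against Flox in PA the alternatives gave 23 (GC trend removed, 40.8% of all genes) to 30. Same-numbered libraries were not alike throughout. Their correlations were -0.24, 0.35 and -0.48 for HKO_PA with HKO_BSA, 0.20, -0.015 and 0.32 for Flox_PA with Flox_BSA, 0.28, -0.21 and 0.36 for HKO_PA with Flox_PA, and 0.14, 0.044 and 0.18 for HKO_BSA with Flox_BSA. In each pairing at least 1 was thus not over 0.1. Of differently numbered libraries, HKO_PA 1 with HKO_BSA 3 had 0.51 and HKO_PA 3 with HKO_BSA 1 had 0.385. Other such pairs of HKO_PA with HKO_BSA had -0.21 to -0.077, and those of Flox_PA with Flox_BSA -0.30 to 0.16. Whether libraries with different numbers shared a source was not tested. With the number as a replicate block the counts were 1, 0, 18, 29 and 0 in the order above (1.72%, 2.3%, 20.4%, 35.3% and 0.154% of all genes). With genotype and number as a block they were 1, 0 and 0 for both PA effects and the interaction (1.13%, 1.16% and 0.0308%). As a share of summed FPKM in place of reads, the mitochondrial genes made up 11.4% (HKO_PA), 12.03% (HKO_BSA), 4.58% (Flox_PA) and 6.62% (Flox_BSA), and the protein-coding genes alone 2.12% of reads in Flox_PA.

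Signs were followed for all 33 genes in HKO against Flox. For PA in Flox, PA in HKO and the interaction just 7, 5 and 4 chosen genes were followed. Among those followed, signs reversed for genes that did not pass: mt-Tc (-0.13) and mt-Rnr1 (-0.11) in BSA with quantile normalization, mt-Ti in BSA without HKO_BSA 2 (0.12, with -0.54 to 0.12 over the libraries left out), mt-Tr in PA with the GC trend removed (-0.185), mt-Tt in PA with the GC trend removed (-0.045) and without HKO_PA 1 or both HKO libraries numbered 1 (-0.079 in both, with -0.079 to 1.159 over the libraries left out), and mt-Atp6 for PA against BSA in HKO without both HKO libraries numbered 1 (-0.12). The interaction median of the mRNAs, 0.41, was -0.06 without HKO_BSA 1, -0.22 without both HKO libraries numbered 1 and -0.02 with array weights. Signs of some genes not followed thus changed too. Without HKO_BSA 1 mt-Ti passed as lower in HKO (-0.54) and without HKO_PA 1 mt-Tv did (-1.67), and the counts above include them. The cause was not tested. Of the single genes, 6 of 20 passed under every alternative with BSA and 21 of 30 with PA. mt-Atp8, tested only because of its HKO values, is among the 21 and adds no support. voom moved the median of all genes to -0.13 (BSA) and -0.16 (PA); relative to it the medians over all 13 mRNAs, 1.12 and 1.63, keep their direction. Over all genes tested, counts past the test were 1994 (BSA), 3475 (PA), 215 (Flox), 286 (HKO) and 26 (interaction); array weights gave 5764, 5004, 3641, 1532 and 1668, and the other alternatives reached down to 1062 (BSA, filter at 5 FPKM), 2280 (PA, without Flox_PA 3), 64 (Flox) and 42 (HKO, only the groups compared), and 0 for the interaction with 1 library left out. mt-Atp8 and the low tRNAs were counted with few reads, which limits what can be said of them. The reason for their low counts was not tested.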
